A study of Marchantia polymorpha subsp. ruderalis with 24 samples.

Results

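Genes whose messenger RNA differed most between replicate libraries of the same time were examined in the liverwort Marchantia polymorpha subsp. ruderalis. The 150 members were chosen by their measured values, as the genes with the largest pooled within-time SD of log2(CPM + 1) among the 11867 genes with a mean of 2 CPM or more that the choice allowed, of 20574 genes in the table. CPM is a gene's count divided by the total of its library and scaled to a common size for all libraries. Their within-time spread is therefore what chose them, and it is described here without a test. All libraries came from the male accession Takaragaike (Tak) -1, and the tissue was labelled as young thallus. Gemmae, which are clonal propagules, were grown with 12 h of light and 12 h of darkness a day at 20 °C, and the plants were then kept in constant light. The 8 groups are the times 24, 30, 36, 42, 48, 54, 60 and 66 h after that shift, each with 3 replicate libraries. The labels give no treatment, mutant or second genotype, and they do not say whether replicates were separate cultures, so a p-value here reflects the spread among these libraries and that spread may be of technical origin. The extraction notes speak of frozen gemmae, whereas the tissue label says young thallus.

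Late embryogenesis abundant (LEA) proteins are small, mostly hydrophilic proteins that are known to build up in drying seeds and in vegetative tissue of mosses and liverworts exposed to abscisic acid, where they are associated with survival of water loss. Abscisic acid is perceived by PYR/PYL receptors. Receptor binding releases SnRK2 kinases from inhibition, and transcription factors of the ABI3 and ABI5 classes act further downstream on LEA genes in land plants. In Marchantia, abscisic acid is also known for keeping gemmae dormant.

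The members fell mainly into 1 block of genes that were high and low in the same libraries, and LEA genes were its largest named class. When the 150 genes were joined by the correlation of their 24 deviations from the time means, 102 formed one group (the LEA group), 28 another (called here the Mp6g09310 group, after its most abundant gene), 9 the smallest (called the MpPPO4 and MpPOD89 group), and 11 belonged to no group of 5 or more. Of the 150 members, 125 matched an entry of the RefSeq gene table and 39 carried a symbol. LEA genes supplied 24 of those symbols.

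The members' median within-time SD was 1.06 on the log2 scale, with a range from 0.651 to 2.32, beside a median of 0.171 over all 11867 genes. Counting error alone would give the members a median SD of 0.104 and at most 0.139. The members were low genes, with a median mean level of 7.005 CPM beside 30.4 CPM over all genes. The single library that contributed most supplied a median of 18.0% of a member's within-time sum of squares, beside 20.7% over all genes. The last 3 genes inside the limit were Mp5g04610 with an SD of 0.654, Mp7g00005b with 0.651 and MpLEA-like50 with 0.651. The first 3 outside were MpLEAL2 with 0.646, Mp3g19490 with 0.641 and MpUGT19 with 0.640, so the limit cuts through a continuous range.

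**Figure D1:**
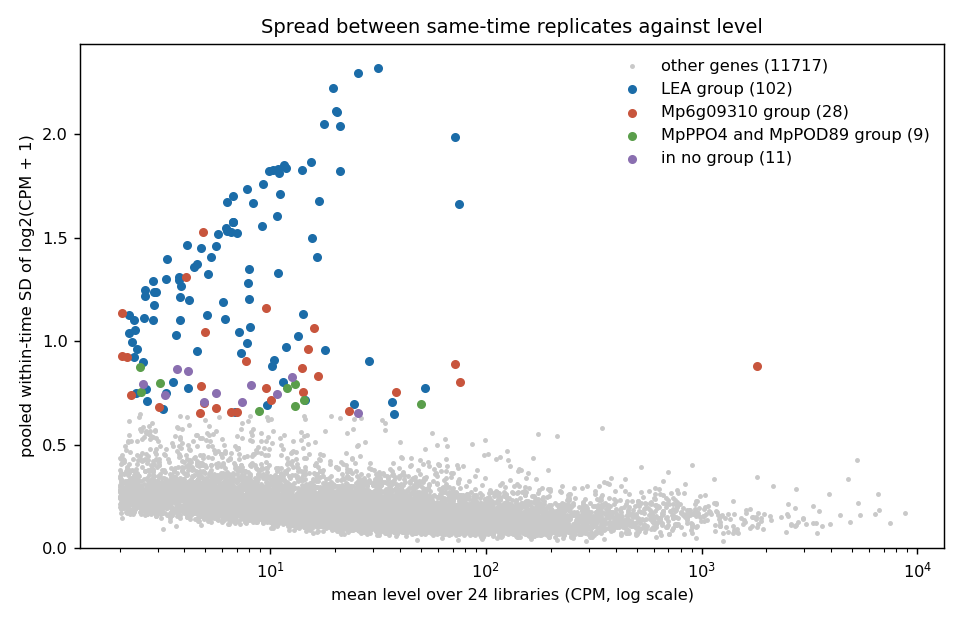
Pooled within-time SD of log2(CPM + 1) against the mean level over 24 libraries in CPM (log scale), 1 point per gene with a mean of 2 CPM or more. The members, coloured by group, lie above 0.650, and nearly all of those above 1.2 belong to the LEA group, while the 11717 other genes are in grey.

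Library totals ran from 14929708 to 59194999 counts, and the pair of libraries farthest apart in the LEA group had nearly equal totals. Other pairs did not. In the Mp6g09310 group the high and low libraries held 53044099 and 34388490 counts at 24 h, and 52301956 and 17653381 at 30 h. At 66 h the high library of both groups held 27678331 counts and the low library 59194999. What part the totals have was not tested. Among markers of other organs and cells, the summed level ran from 49.1 to 82.3 CPM for antheridia and sperm and from 46.9 to 83.5 CPM for oil body cells. It ran from 59.1 to 89.3 CPM for MpNOP1 of air pores. The gemma cup and gemma list held only MpSHI and MpCLE2, with a sum of 50.9 to 84.9 CPM. Whether these 2 genes follow gemma cups was not tested. The sperm genes MpPRM and MpLC7 were near 0, with means of 0.0199 and 0.0298 CPM, and nearly all of the antheridium sum was MpCEN1. None of the 13 markers with a symbol was a member. Only 1 of 5 antheridium and sperm markers, 4 of 5 oil body markers, both gemma markers and MpNOP1 reached 2 CPM and could be one. With 1.26% of all genes at that level being members, so few genes would hold few. In whole-tissue RNA, more cells of a type and more RNA per cell cannot be told apart.

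The level of the LEA group changed many-fold between libraries of one time, in a different replicate from time to time. The summed level of its 102 genes was 224, 652 and 184 CPM in replicates 1, 2 and 3 at 24 h, then 208, 590 and 817 CPM at 30 h and 1143, 3041 and 1217 CPM at 36 h. At 42 h the 3 libraries were close, at 288, 253 and 378 CPM. At 48 h the sums were 3866, 173 and 846 CPM, and at 54 h they were 1468, 3813 and 215 CPM. The high library was thus replicate 2 at 24, 36 and 54 h, replicate 1 at 48 h and replicate 3 at 30, 60 and 66 h. At 60 h the sums were 1028, 687 and 2478 CPM, and at 66 h they were 261, 421 and 2155 CPM.

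At 48 h all 102 genes were higher in replicate 1 than in replicate 2, by a median of 14.3-fold in CPM + 1. Those libraries held 19316121 and 19271096 counts. At 54 h all 102 were higher in replicate 2 than in replicate 3, by a median of 12.9-fold. At 66 h, 99 of 102 were higher in replicate 3 than in replicate 1, by a median of 7.03-fold, and at 42 h the median difference between replicate 3 and replicate 1 was 1.29-fold. The replicate number accounted for a median of 1.70% of the within-time sum of squares in this group. The median within-time SD of the 102 genes was 1.93 at 48 h and 0.359 at 42 h, while the median over all genes stayed between 0.116 and 0.180 at every time.

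**Figure D2:**
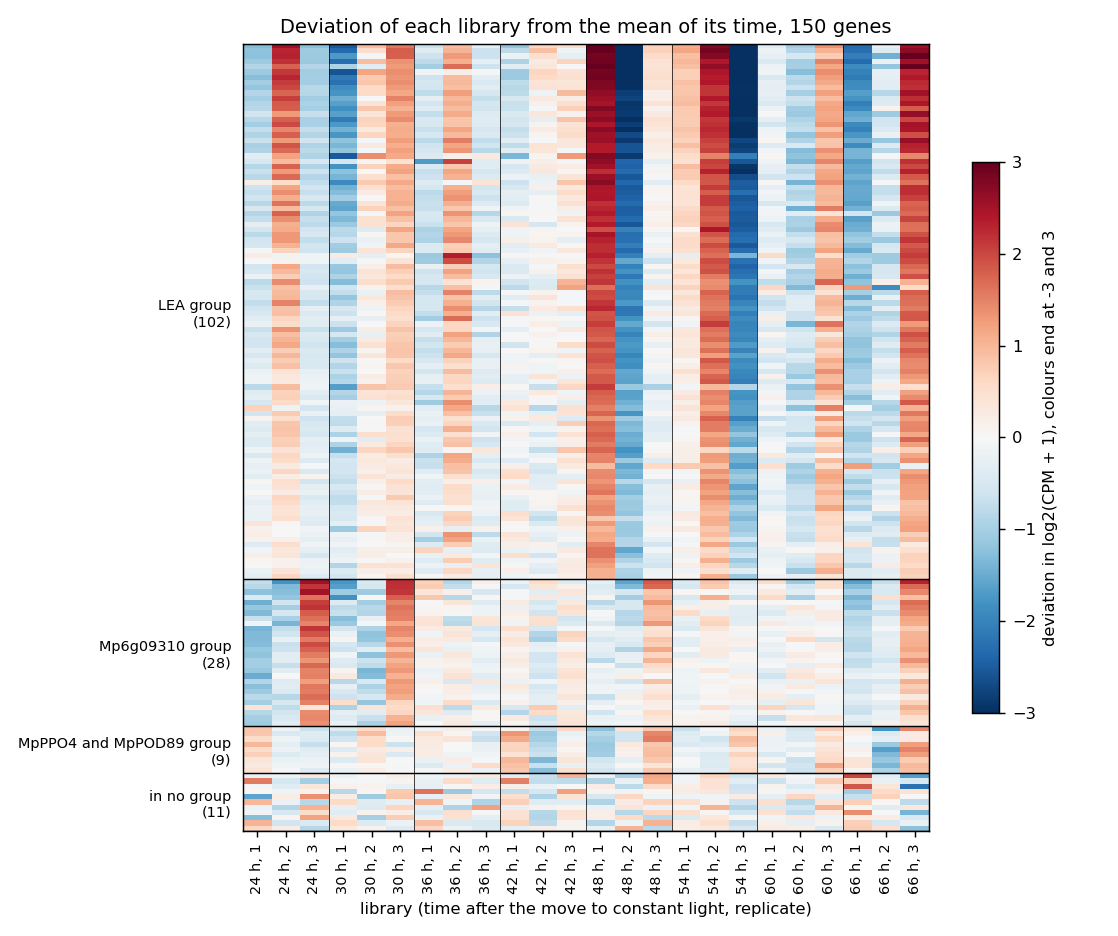
Deviation of each library from the mean of its time in log2(CPM + 1), 150 genes by 24 libraries, ordered by group and then by SD. Red is above and blue below the time mean, and the LEA group is a nearly solid block, highest in replicate 1 at 48 h, replicate 2 at 54 h and replicate 3 at 66 h.

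Within the LEA group the genes kept close order. The median correlation between 2 of its genes over the 24 deviations was 0.923, and 87 of 102 correlated above 0.9 with the group's mean profile. These correlations come from libraries shared by all genes, and the group was formed by them, so they are a description. Of these genes 43 had no read in at least 1 library.

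The LEA genes carried the group's profile at very different levels. MpLEAL1, one of the most abundant, was at 2.53, 30.5 and 2.53 CPM at 24 h, 2.34, 27.3 and 40.8 CPM at 30 h, 70.4, 197 and 73.2 CPM at 36 h and 4.13, 10.3 and 10.1 CPM at 42 h. In the second day it stood at 294, 3.53 and 55.4 CPM at 48 h, 102, 293 and 4.74 CPM at 54 h, 71.8, 46.2 and 189.5 CPM at 60 h and 8.19, 26.5 and 161 CPM at 66 h. It was high in the same libraries as the group sum, and its lowest and highest levels of the second day were both at 48 h.

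MpLEA1 and MpLEA2 showed the same libraries at lower levels. MpLEA1 was at 52.7, 0.208 and 8.54 CPM at 48 h and at 15.6, 40.4 and 0.191 CPM at 54 h. MpLEA2 was at 11.9, 0 and 2.25 CPM at 48 h and at 4.01, 11.6 and 0.0318 CPM at 54 h. MpLEA-like37, the widest LEA gene, was at 72.1, 0 and 12.6 CPM at 48 h and at 22.7, 76.7 and 0.636 CPM at 54 h, with a pooled SD of 2.05. In each of these genes the lowest of the 3 libraries was at or near 0 while the highest was among the highest of the series.

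MpLEA-like50 varied least of the LEA members. Its level was 10.03, 19.6 and 9.12 CPM at 24 h, 58.6, 68.3 and 47.1 CPM at 36 h, 70.7, 16.2 and 30.7 CPM at 48 h and 38.0, 77.4 and 16.4 CPM at 54 h. It never fell below 9.12 CPM, and its highest libraries were those of the other LEA members.

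Fewer than 1 in 2 genes of the wider dehydration and abscisic acid list were members. The others at 2 CPM or more had a smaller within-time SD, which the rule of choice fixed in advance. The list held 83 genes with a symbol, of which 54 passed 2 CPM and 24 were members, all of them LEA genes of the LEA group. Of 46 LEA genes at 2 CPM or more, 52.2% were members, beside 1.26% of all genes at that level. The summed level of the 24 members ran from 18.2 to 995 CPM over the 24 libraries. The sum of the 30 other list genes at 2 CPM or more, 22 of them also LEA genes, ran from 1291 to 1669 CPM. The members had a median mean level of 6.78 CPM and the other 30 one of 29.8 CPM, although MpLEAL1 at 72.0 CPM was a member and MpLEAL2 at 2.49 CPM was not. Of the 29 list genes under 2 CPM, 13 correlated above 0.7 with the LEA group.

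The genes for the receptor, the kinases and the transcription factors of abscisic acid signalling that reached 2 CPM were not members. With 1.26% of all genes at that level being members, so few genes would hold few. MpPYL2, MpPYL4, MpPYL5, MpPP2C_A1, MpPP2C_A2 and MpPP2C_A3 were under 2 CPM and could not be members. MpPYL1, an abscisic acid receptor, ran from 43.7 to 71.2 CPM, with an SD of 0.158. The kinase genes MpSNRK2A and MpSNRK2B ran from 159.7 to 218 CPM and from 18.1 to 32.001 CPM, with SDs of 0.0875 and 0.137. MpABI3A, of the ABI3 class, ran from 32.8 to 68.7 CPM and had its lowest level in replicate 2 at 48 h, a library in which the LEA group was lowest. Its highest level was in replicate 1 at 42 h, where the LEA group sum was 288 CPM. In replicate 2 at 54 h, where that sum was 3813 CPM, MpABI3A was at 44.8 CPM, the highest of that time. Within times, MpABI3A was highest in the LEA group's highest library at 30, 36, 48, 54, 60 and 66 h. At 24 and 42 h it was not. The deviations of MpABI3A correlated with the LEA group at 0.654 over 24 libraries, those of MpSNRK2A at 0.520 and those of MpABI5B at 0.479. Those of MpSNRK2B correlated at 0.0945, those of MpABI5A at -0.132 and those of MpPYL1 at -0.262. The dehydrin genes MpDHN2 and MpDHN3 had SDs of 0.214 and 0.282 and correlated at -0.426 and 0.189.

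**Figure D3:**
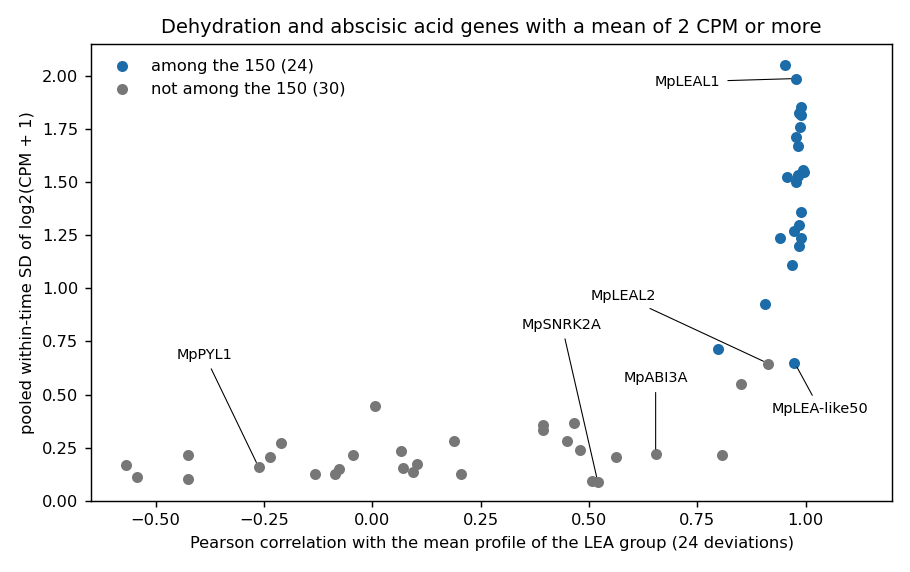
Pooled within-time SD of log2(CPM + 1) against the Pearson correlation with the LEA group's mean profile, for the 54 dehydration and abscisic acid genes with a mean of 2 CPM or more. The 24 members lie at correlations of 0.798 to 0.995, and most of the 30 others lie below an SD of 0.4, with MpLEAL2 just under the limit at 0.646.

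The LEA group also held 10 named genes that are not LEA genes. MpSUT4, a sucrose transporter, was at 14.7, 0.363 and 4.03 CPM at 48 h and at 4.45, 13.4 and 0.159 CPM at 54 h. MpUGT5, of the glycosyltransferase family that attaches sugars to small molecules, was at 22.3, 1.82 and 7.02 CPM at 48 h. MpDIR44, of the dirigent family that guides the coupling of phenolic compounds, was at 29.5, 0.415 and 4.91 CPM at 48 h and at 11.5, 28.7 and 1.97 CPM at 54 h. At 48 h all 3 were highest in replicate 1 and lowest in replicate 2, as the LEA genes were. MpDIR34 and MpExpansin14, whose family loosens cell walls, moved less, with 15.6, 3.17 and 6.13 CPM and 43.1, 10.1 and 16.7 CPM at 48 h.

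MpMFT, a homologue of MOTHER OF FT AND TFL1, a phosphatidylethanolamine-binding protein that acts with abscisic acid on seed germination in Arabidopsis, was picked out after its values were seen. It was at 39.3, 3.11 and 8.46 CPM at 48 h, at 18.0, 41.3 and 7.31 CPM at 54 h and at 4.21, 9.98 and 24.6 CPM at 66 h. Also in the group were MpGH16.16, MpGH16.17, MpGH18.3 and MpLTP-like72, with mean levels between 3.19 and 6.19 CPM.

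The 5 genes with the widest spread had no symbol. Mp4g15740, the widest of all, was at 0.174, 15.8 and 0.207 CPM at 24 h, 121, 0 and 21.8 CPM at 48 h and 41.7, 132 and 0.350 CPM at 54 h. Mp4g15050, the second, was at 115, 0 and 21.4 CPM at 48 h and at 36.1, 119 and 0 CPM at 54 h. Mp2g01360, the most abundant of the group with a mean of 75.4 CPM, was at 278, 11.1 and 63.7 CPM at 48 h and at 107, 314 and 6.45 CPM at 54 h. The 3 genes ranked the libraries alike at 48 and 54 h, and Mp4g15740 and Mp4g15050 had no read in replicate 2 at 48 h.

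Several of these genes lie side by side. Counting identifiers no more than 2 steps apart, 46 members stood in 18 runs. One run from Mp2g26410 to Mp2g26460 held 5 members, including MpLEAL7, MpLEA-like9 and MpLEA-like10, and another from Mp7g07330 to Mp7g07370 held 4 members without a symbol. MpLEA-like18, MpLEA-like19 and MpLEAL5 formed a run of 3, as did MpLEA-like60, MpLEA-like61 and Mp8g13560. Neighbouring copies of a family can share reads, so their values are uncertain as separate measurements.

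Outside the members, the genes with a symbol most like the LEA group over the 24 deviations were MpCER5, MpLEAL2 and MpBHLH40, at correlations of 0.934, 0.914 and 0.892. MpCER5 had a small swing on a high level, from 76.5 CPM in replicate 3 at 54 h to 148 CPM in replicate 1 at 48 h. MpBHLH40, of the basic helix-loop-helix transcription factor family, was at 16.4, 5.76 and 10.2 CPM at 48 h. Of the 11717 genes that were not members, 149 correlated above 0.7 with the LEA group and 10 below -0.7.

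The Mp6g09310 group was high in replicate 3 at 24, 30, 48 and 66 h. Its summed level was 1136, 2302 and 8360 CPM at 24 h, 2457, 1120 and 5347 CPM at 30 h, 1403, 1590 and 3481 CPM at 48 h and 1559, 2268 and 5629 CPM at 66 h. Replicate 3 was the highest library in 27, 28, 27 and 28 of the 28 genes at those times. At 36, 42, 54 and 60 h the libraries lay between 450 and 2731 CPM, with no such order. Replicate number accounted for a median of 39.1% of the within-time sum of squares, against 9.04% over all genes.

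Mp6g09310 held most of that sum, with 935, 1990 and 6822 CPM at 24 h, 2098, 891 and 4199 CPM at 30 h and 1287, 1924 and 4690 CPM at 66 h. Mp3g13560 was at 35.1, 60.7 and 331 CPM at 24 h and at 74.1, 36.0 and 225 CPM at 30 h. Mp3g25515h was at 3.98, 3.80 and 65.3 CPM at 24 h and at 4.88, 4.87 and 53.9 CPM at 30 h, and it lay between 1.38 and 9.39 CPM at 36 to 60 h. Replicate 3 was the highest library in each of these genes at both times.

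Most genes of this group had little annotation. Of the 28, 7 matched RefSeq and 1 carried a symbol, MpATXR13, which was at 2.33, 3.07 and 15.0 CPM at 24 h. The identifiers of 13 ended in a letter, of 26 such identifiers among all 11867 genes, and 7 were of the 35 identifiers that begin with Mpzg. The libraries in which the group was highest also held most reads of MpVg01240, a gene of the male V chromosome that the choice left out. MpVg01240 took 7.22%, 4.44% and 4.27% of all counts in replicate 3 at 24, 30 and 66 h, and from 0.301% to 2.39% in the other libraries. Without those 3 libraries, a setting added after the data were seen, 5 of the 28 stayed among the 150 widest genes, and all 102 of the LEA group did. What part that gene or the preparation of those libraries has in the result was not tested.

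**Figure D4:**
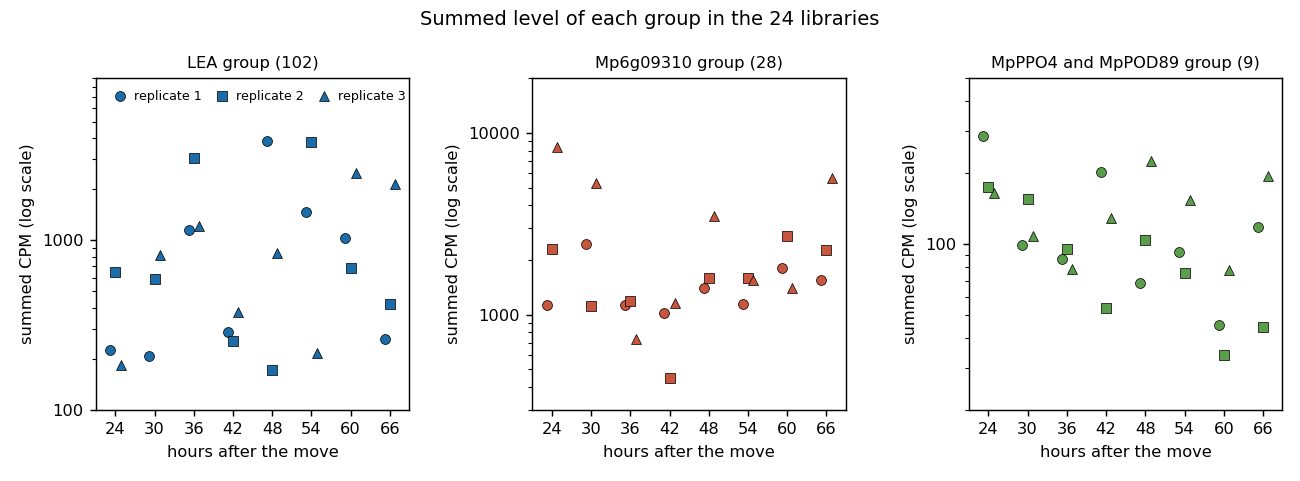
Summed level in CPM (log scale) of the 3 groups in each library by hours after the move, 1 point per library, with replicate 1, 2 and 3 as circle, square and triangle. The LEA group spans 173 to 3866 CPM at 48 h, the Mp6g09310 group peaks at 8360 CPM in replicate 3 at 24 h, and the third group spans 34.2 to 285 CPM overall.

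The MpPPO4 and MpPOD89 group had a pattern of its own. The summed level of its 9 genes was highest in replicate 1 at 24 and 42 h and in replicate 3 at 48, 54, 60 and 66 h. MpPOD89, a class III peroxidase, was at 111, 74.4 and 74.9 CPM at 24 h, 54.0, 9.75 and 34.1 CPM at 42 h, 35.5, 42.9 and 92.2 CPM at 48 h and 60.8, 20.2 and 78.3 CPM at 66 h. MpPPO4, a polyphenol oxidase that turns phenols to quinones, was at 16.2, 11.5 and 8.88 CPM at 24 h, 16.2, 3.06 and 12.4 CPM at 42 h, 6.63, 8.41 and 18.4 CPM at 48 h and 12.5, 5.69 and 23.1 CPM at 66 h. The lowest library was replicate 2 at 42 and 66 h in both genes and replicate 1 at 48 h, the library in which the LEA group was highest.

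MpNBS-LRR11, of the nucleotide-binding leucine-rich repeat class of plant immune receptors, was at 5.15, 2.11 and 1.19 CPM at 24 h, 5.70, 2.73 and 8.58 CPM at 42 h, 0.155, 2.59 and 3.77 CPM at 48 h and 3.38, 0 and 8.49 CPM at 66 h. The median correlation between genes of this group was 0.792, and its mean profile correlated with that of the LEA group at -0.0518.

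The other gene lists held 0 to 2 members each, and with 1.26% of all genes at 2 CPM or more being members, most of these lists would hold few. Among listed genes at that level, members were 2 of 29 dirigent genes (6.90%), 1 of 25 polyphenol oxidases and laccases, 1 of 31 cell wall genes (3.23%), 1 of 89 class III peroxidases (1.12%) and 1 of 100 glycosyltransferases. There were 0 among 5 chaperone genes, 34 of phenylpropanoid and flavonoid synthesis, 14 of lipoxygenase and oxylipin metabolism, 6 pathogenesis-related genes, 31 nutrient transporters, 68 cytochromes P450, 29 glutathione transferases and 12 of terpene synthesis and oil bodies. There were also 0 among 123 transcription factors, 66 receptor kinases, 6 proteases, 25 histones and 70 pentatricopeptide repeat genes. No gene with a symbol was found for photosystem, ribosomal protein or rhizoid marker lists.

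Differences between times were tested across all 14414 genes by edgeR's quasi-likelihood F-test, with the replicate spread as error. The members were chosen for a wide spread, so these tests have a large error in them. For any difference between the 8 times, 31 of 150 members passed an adjusted p of 0.05, which is 20.7%, beside 36.8% of all genes tested. They were 7 of the LEA group, 16 of the Mp6g09310 group, 3 of the third group and 5 of the genes in no group. For a 24 h rhythm, 9 members passed, which is 6%, beside 18.7% of all genes tested. Without replicate 1 at 42 h or replicate 3 at 66 h, the count for any difference was 19 or 52, beside 36.1% or 37.9% of all genes tested. The rhythm count was 27 without replicate 1 at 48 h, beside 18.1% of all genes tested. It was 5 or 6 without replicate 3 at 24 or 30 h, replicate 1 or 3 at 36 or 42 h, replicate 1 or 2 at 54 h or any library of 60 h. In those fits 15.6% to 18.9% of all genes tested passed.

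For a difference between the days, taken as the mean of 48 to 66 h minus the mean of 24 to 42 h, 56 members passed, which is 37.3%, beside 34.6% of all genes tested. Of these, 54 were higher in the second day, beside 18.3% of all genes in that direction, and 2 were lower, beside 16.3%. The LEA group held 51 of the 54, and since its genes share 1 profile these are not separate observations. Its summed level ran from 184 to 3041 CPM over the 12 libraries of the first day and from 173 to 3866 CPM over the 12 of the second, with medians of 484 and 937 CPM. The days overlapped widely. The count fell to 19 without replicate 1 at 48 h, to 22 without replicate 2 at 54 h and to 20 without replicate 3 at 66 h. These were the highest libraries of those times. In those fits 32.9%, 31.1% and 35.1% of all genes tested passed. The count was 33 without replicate 1 at 42 h, 34 without replicate 3 at 60 h and 36 without replicate 3 at 24 h. It was 37 without replicate 1 at 24 h or replicate 1 or 3 at 36 h. Beside these stood 30.2% to 34.5% of all genes tested. Without replicate 2 at 24 h, replicate 2 at 48 h, replicate 3 at 54 h or replicate 1 at 66 h, it rose to 82, 81, 82 and 72. The shares of all genes tested were then 32.2%, 31.4%, 34.2% and 31.7%. Without the 3 libraries rich in MpVg01240 the count was 24, beside 31.1% of all genes tested. Of these 24, 8 were in the LEA group, in place of 51, and 10 in the Mp6g09310 group, in place of 0. Among the 56 were 13 of the 24.

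All 24 LEA members had a positive fitted difference between the days, and 9 passed, which is 37.5%. Of all genes tested, 34.6% passed in either direction and 18.3% were called higher in the second day. As the LEA members share 1 profile, the 9 calls are not separate observations. Leaving out replicate 1 at 48 h or replicate 2 at 54 h ended 7 of these 9 calls, leaving out replicate 3 at 66 h ended 6, and leaving out the 3 libraries rich in MpVg01240 ended 8. Without replicate 2 at 24 h, replicate 2 at 48 h, replicate 3 at 54 h or replicate 1 at 66 h, 23, 21, 22 and 17 LEA members passed. The count was 5 without replicate 3 at 24 h, and 6 without replicate 1 at 24 h, replicate 1 or 3 at 36 h, replicate 1 at 42 h or replicate 3 at 60 h. MpLEAL1 was higher in the second day by 2.16 ± 0.66 (SE, n = 12 libraries a day) on the log2 scale, with an adjusted p of 0.0142 in edgeR's test, and over the alternative settings that p ran from 0.00469 to 0.121, and the call ended with limma-voom and without the 3 libraries rich in MpVg01240. MpLEA-like50 was higher by 0.76 ± 0.23 (adjusted p = 0.0138, edgeR), and it was the only LEA member that passed the test for any difference between times (adjusted p = 0.0177, edgeR), a call that ended without replicate 1 or 3 at 24 h, with edgeR's robust option and without the libraries rich in MpVg01240. MpLEA1 differed by 1.92 ± 0.81 and did not pass (adjusted p = 0.0698, edgeR). MpDIR44 rose by 2.90 ± 0.64 (adjusted p = 0.00147, edgeR). No LEA member passed the rhythm test, but 5 did without replicate 1 at 48 h and 15 did with limma-voom. In the whole LEA group of 102 genes the rhythm count went from 1 to 18 and 43 under those settings. Of all genes tested, 18.7% passed for a rhythm in the reported fit, and 18.1% and 26.4% under those settings. Of the LEA members, MpLEAL3, with the largest fitted swing, had a peak-to-trough difference of 2.98 ± 1.35 (adjusted p = 0.270, edgeR).

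Genes outside the LEA group also passed these tests. Mp8g13340, of the third group, was at 52.8, 39.8 and 39.7 CPM at 24 h, 19.1, 19.1 and 17.7 CPM at 30 h, 3.46, 4.17 and 7.84 CPM at 36 h and 10.5, 14.7 and 18.5 CPM at 48 h. Its lowest libraries were at 60 and 66 h, where it was at 0.974, 0.954 and 5.39 CPM and at 3.62, 0.335 and 5.74 CPM. The 24 h libraries lay above all others. It passed the test for any difference (adjusted p = 2.84e-05, edgeR) and for a rhythm, with a swing of 2.71 ± 0.45 (adjusted p = 0.00031, edgeR). It was lower in the second day by a fitted difference of -1.05 ± 0.29 (adjusted p = 0.00775, edgeR).

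Mp5g04660 and Mp5g04540, in no group, were highest at 42 h. Mp5g04660 was at 29.4, 13.3 and 13.4 CPM at 42 h, 15.0, 6.14 and 3.22 CPM at 36 h and 1.14, 3.74 and 5.32 CPM at 48 h. Mp5g04540 was at 20.3, 6.69 and 13.4 CPM at 42 h and at 3.75, 0.577 and 0.735 CPM at 24 h. Both passed the rhythm test, with swings of 3.18 ± 0.61 (adjusted p = 0.00122, edgeR) and 2.17 ± 0.52 (adjusted p = 0.0107, edgeR), and the call for Mp5g04540 ended without replicate 1 at 42 h, its highest library. MpPPO4 and MpPOD89 passed it too, with swings of 1.44 ± 0.37 and 1.32 ± 0.39 (adjusted p = 0.0201 and 0.0484, edgeR), and the call for MpPOD89 was lost without any of 17 libraries in turn. With a day term beside the linear term, the rhythm calls of Mp8g13340, Mp5g04660, Mp5g04540 and MpPOD89 ended, at adjusted p-values up to 0.142, 0.425, 0.225 and 0.303 over all settings.

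Mp5g04610, Mp6g20580 and Mp6g12780 were higher in the second day. Mp5g04610 was at 8.11, 5.91 and 2.26 CPM at 24 h, 27.8, 38.3 and 35.7 CPM at 42 h, 57.4, 55.2 and 35.7 CPM at 60 h and 60.6, 50.1 and 14.5 CPM at 66 h. The day difference was 1.52 ± 0.25 (adjusted p = 0.000103, edgeR). Mp6g20580 differed by 1.62 ± 0.31 (adjusted p = 0.000371, edgeR), and 45.2% of its within-time sum of squares came from 1 library, replicate 3 at 66 h, in which it was at 2.02 CPM beside 50.4 and 17.1 CPM. Mp6g12780 differed by 2.33 ± 0.47 (adjusted p = 0.000635, edgeR).

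**Figure D5:**
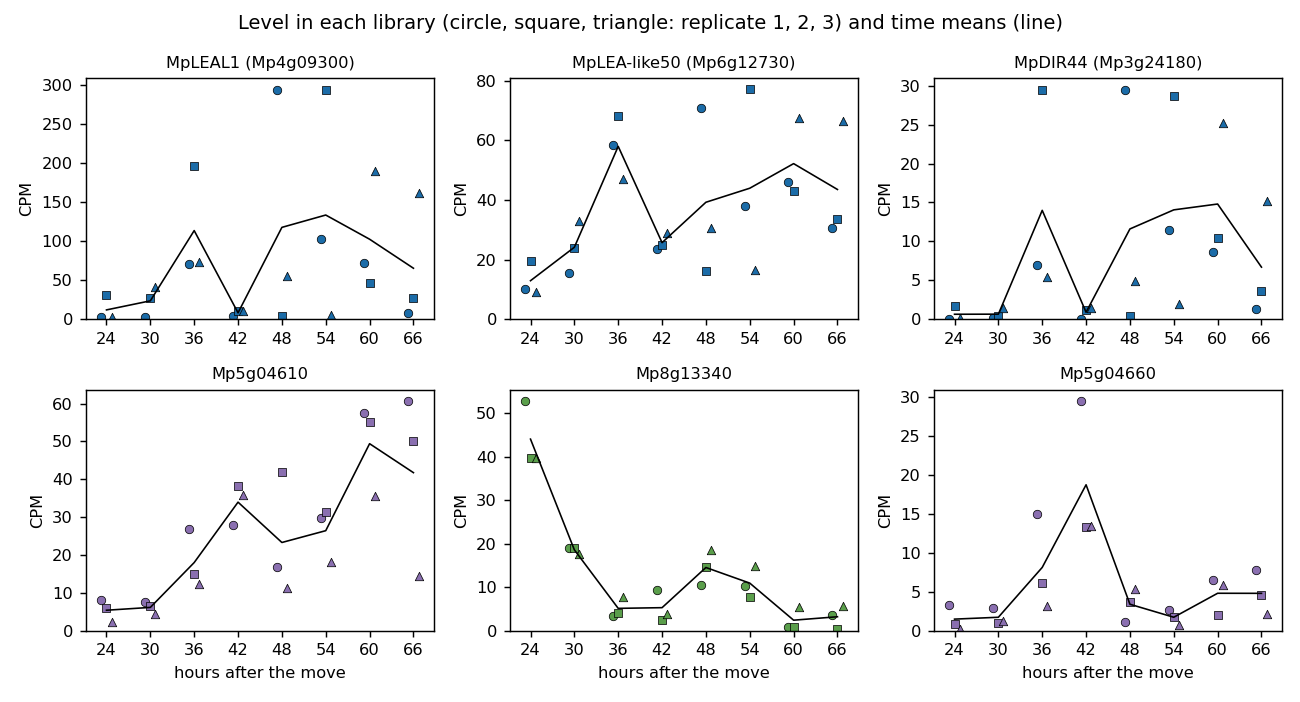
Level in CPM by hours after the move for 6 members, 1 point per library (circle, square and triangle for replicates 1, 2 and 3), with the time means as a line. MpLEAL1 reaches 294 CPM in one library of 48 h and 3.53 CPM in another, whereas Mp8g13340 stands at 39.7 to 52.8 CPM in all 3 libraries of 24 h.

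In the Mp6g09310 group, 22 of 28 genes had their highest fitted level at 24 h. None passed for a rhythm or a day difference, beside 18.7% and 34.6% of all genes tested. For any difference between times 16 passed, which is 57.1%, beside 36.8% of all genes tested. That count was 9 with replicate number as a block and 2 with edgeR's robust option. It was 0 with limma-voom and 0 at an adjusted p of 0.01. Mp3g25515h, whose values are given above, passed with an adjusted p of 0.0157 in edgeR's test, a call that ended under several settings, among them limma-voom, edgeR's robust option and the fit without the libraries rich in MpVg01240, and Mp6g09310 did not (adjusted p = 0.0523, edgeR). Without the 3 libraries rich in MpVg01240, 8 of the 28 passed for any difference and 10 for the days, beside 30.2% and 31.1% of all genes tested.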

How the data were processed

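Whole-number counts per gene for 24 libraries (8 times, 3 replicates each) were deposited by the authors, not normalized. The sources used here do not give the aligner, the counter, its strand setting or the build. Libraries were stranded and poly(A)-selected, per the labels' protocols. All 24 columns were mapped to samples, with 0 left over. Symbols were joined by the digits of the locus tag to RefSeq's genes of assembly MpTak2_v7.1. Of 20574 identifiers, 17641 matched and 3091 had a symbol; the identifiers are of another annotation version, so a renumbered gene would carry a wrong symbol.

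CPM used column totals. Of 11911 genes with a mean of 2 CPM or more, the choice left out 44 (V chromosome genes and 7 named identifiers, where they reached that level), 9 of which ranked among the first 150. Members were grouped by average linkage on 1 minus Pearson correlation of deviations from time means, at height 0.5. Gene lists were matched by symbol. Members, lists and tests were chosen with earlier results of these data known.

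Tests used edgeR 4.0.16 in R 4.3.3: filterByExpr (minimum count 10), TMM, glmQLFit and glmQLFTest, Benjamini-Hochberg over 14414 genes, threshold 0.05. All 150 members passed the filter. Times had 1 mean each. The rhythm test took both terms of a 24 h cosine curve, beside a linear term. Each SE was worked back from the F-test, as the fitted difference divided by the root of F. For a swing the fitted peak hour was held fixed, so its SE leaves out the uncertainty of the peak hour. DESeq2 1.42.0 and limma 3.58.1 were alternatives. Genes named are the widest, the most abundant, those at the limit, those with a symbol in a list, those with the largest fitted effects, those nearest to a group's mean and those with the largest and smallest share from 1 library; others are marked as picked later. The steps were tested on simulated data. Over all 11867 genes, same-numbered replicates of different times had a median correlation of 0.017 over 84 pairs, from -0.582 to 0.570. Pairs of other numbers had -0.00469 over 168 pairs, from -0.675 to 0.660, so no block was used. The Mp6g09310 group differed, with a median of 39.1% of the within-time sum of squares going with replicate number.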

Additional observations from a re-analysis of the deposited data

How the results depend on the processing

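Counts of members called for any difference between times, a rhythm and a day difference were 31, 9 and 56. They were 6, 2 and 10 at an adjusted p of 0.01, and 8, 5 and 27 with edgeR's robust option. The limma-voom fit with library weights gave 28, 51 and 14, and DESeq2 gave 39, 11 and 49. In the reported edgeR fit the unadjusted p fell under 0.05 in 53, 15 and 89 members. Of all 14414 genes tested, it did so in 6605, 4234 and 6254. The shares of all genes tested were 36.8%, 18.7% and 34.6% in the reported fit, and 24.5%, 12% and 21.6% at 0.01. With the robust option they were 36.6%, 18.6% and 34.1%. They were 65.1%, 26.4% and 46.2% with limma-voom, and 44.8%, 21.5% and 36.4% with DESeq2. With a day term in place of the linear term the rhythm count was 14, beside 29.6% of all genes tested. With both terms it was 2, beside 7%. The replicate block gave 20, 7 and 57, beside 35.4%, 18.4% and 33.9% of all genes tested. It lowered the calls for any difference in the Mp6g09310 group from 16 to 9 and ended that of Mp3g25515h. Over all genes the replicate numbers did not pair the samples: 12 of 24 libraries correlated better with their own number. Leaving out 1 library at a time gave 19 to 52, 5 to 27 and 19 to 82. The shares of all genes tested were then 31.9% to 37.9%, 15.6% to 19.5% and 30.2% to 36.6%. Without the 3 libraries rich in MpVg01240 the day count was 24, beside 31.1% of all genes tested. The cause of these shifts was not tested.

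Chosen again without 1 library, the 150 widest genes kept 137 to 147 members, 22 to 25 genes of the dehydration list and a largest group of 90 to 109. The median SD of the 150 reported genes was then 0.967 to 1.17. With a mean of 10 CPM or more, 55 members, 8 list genes and a largest group of 46 were left, since fewer members reach that level. A pseudocount of 5 lowered that median to 0.642, the median over times gave 0.863, and leaving out 48, 54 and 66 h gave 0.846. Without those 3 times 77 of the 102 LEA group genes stayed among the widest 150, as did 81 without 48 and 54 h.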
